A study of Mus musculus with 16 samples.

Results

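The genes described here are 9 senescence and secretory phenotype genes: Il1b, Il6, Tnf, Igfbp3, Plaur, Plau, Icam1, Lmnb1 and Glb1. They were chosen by name, and every probe annotated to one of them was taken. That gave 10 probes, 1 for each gene and 2 for Lmnb1, among the 16590 named genes on the array. The study set lymphomas of Eµ-Myc mice against lymphomas of Eµ-Myc mice that also carried the helicase deletion of Wrn on both copies (Eµ-Myc Wrn Dhel/Dhel). There were 4 tumours of each genotype, each on 1 Illumina bead array, labelled as B cell lymphoma of strain C57B6. All 8 tumours carried the Eµ-Myc transgene, in which the immunoglobulin heavy chain enhancer drives Myc in the B lineage, so no tumour or tissue without it served as a control. No age or treatment is given, and whether each tumour is from its own animal is not stated, so each p-value rests on the spread of these 8 tumours, which may be partly technical. Each title also carries a letter, E or L, whose meaning is not given. Tumours are numbered 1 to 4 within each genotype by their order in the series, not by the number in their titles. For example, Eµ-Myc 2 is titled Eu_Myc_L1. Eµ-Myc tumours 1 and 3 carry E, as do Wrn tumours 2 and 4, and the other tumours carry L.

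Senescence is a lasting withdrawal from the cell cycle. Senescent cells often release cytokines, proteases and growth factor binding proteins, together called the senescence-associated secretory phenotype, while they lose lamin B1 from the nuclear lamina and gain lysosomal beta-galactosidase activity. Wrn is a RecQ helicase that acts in replication and DNA repair, and its loss in humans causes Werner syndrome, a disease of premature ageing. In Myc-driven lymphoma, senescence and cell death are known barriers to tumour growth.

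The 8 arrays were alike in depth. The median non-normalized signal lay between 49.9 and 52.8 intensity units, 10607 to 11369 of 25697 probes were detected (41.3% to 44.2%), and the tumours correlated with each other at 0.945 to 0.984 over the tested probes. A probe counted as detected at a detection p under 0.01, and it was tested when detected on at least 4 of the 8 arrays. Signals are given on the log2 scale after background correction with an offset of 16 and quantile normalization, which makes the differences of dim probes smaller than they are. Of the B cell markers, 8 of the 9 on the array were detected in all 8 tumours, and Pax5 was detected in none. Their summed signal was 9822 to 13386 in the Eµ-Myc tumours and 11762 to 19404 in the Wrn tumours. Because whole tumours were measured, fewer cells of a type and less RNA per cell cannot be told apart.

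No member differed between genotypes or letters past the test. Of the 10 member probes 8 were tested, covering 7 genes. For Il6 and Tnf, which failed the detection rule, values come from the same fit with no filter. None of the 8 was called between genotypes at a limma adjusted p under 0.05, against 4 of all 11024 tested probes (0.0363%). None was called between letters, against 2 probes (0.0181%), and none in the interaction of genotype and letter, where 0% of all probes were called. At an unadjusted p under 0.05 the counts of member probes were also 0, against 415, 820 and 554 of all tested probes for genotype, letter and interaction. In no member probe did the genotypes or the letters fall into separate ranges, as they did for 2.21% and 5.01% of all tested probes.

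**Figure D1:**
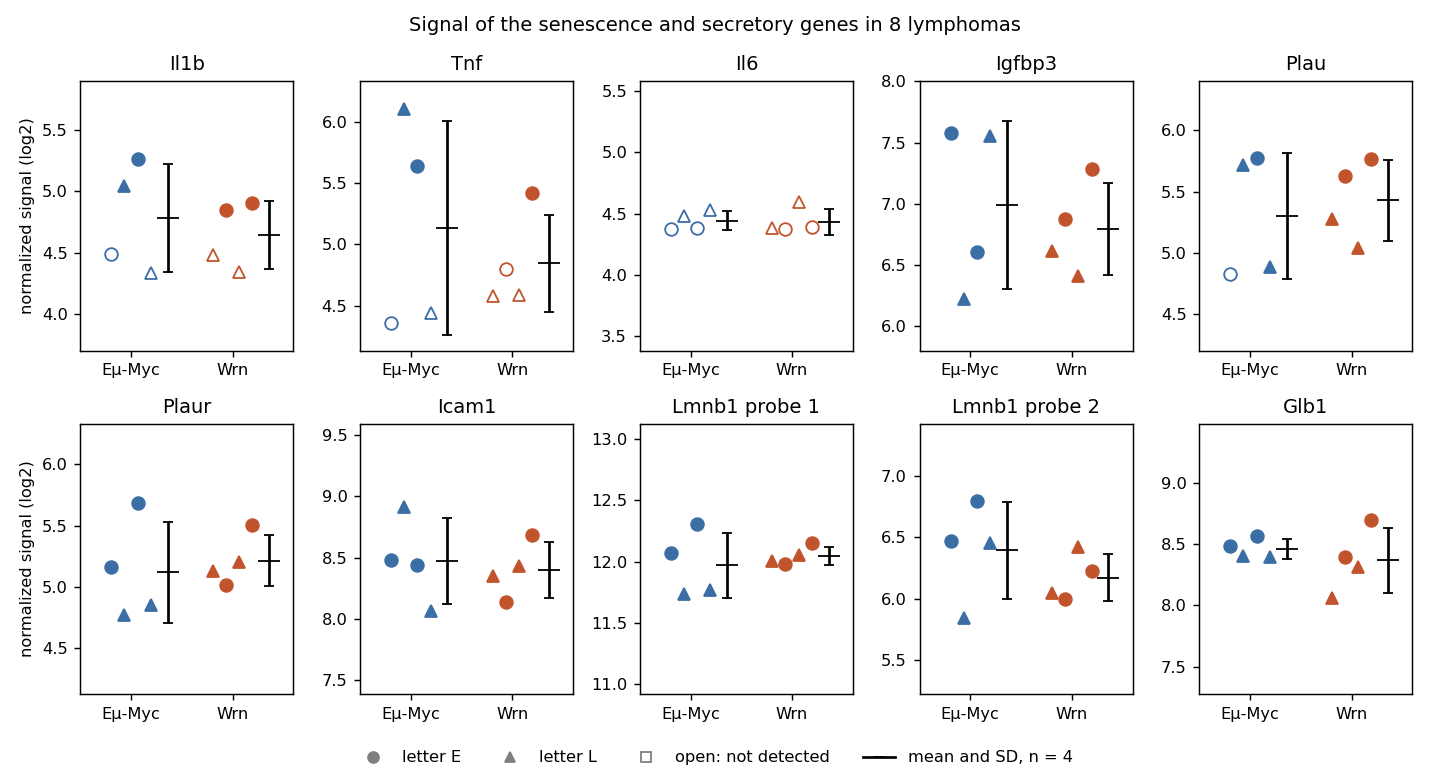
Normalized signal (log2) of each member probe in each tumour, by genotype, with circles for letter E, triangles for letter L, open symbols where the probe was not detected, and bars for the mean and SD of 4 tumours. Each panel spans the same log2 width around its own centre, and the Eµ-Myc and Wrn tumours overlap in all 10.

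Among the cytokines, interleukin 1 beta (Il1b), which is made as a precursor and drives inflammation through the interleukin 1 receptor, was near background. Its signal was 4.49, 5.05, 5.26 and 4.34 in Eµ-Myc tumours 1 to 4 and 4.48, 4.85, 4.35 and 4.91 in Wrn tumours 1 to 4. It was detected in 4 of 8 tumours, Eµ-Myc 2 and 3 and Wrn 2 and 4, which were also its 4 highest, and both genotypes thus held high and low tumours. The means were 4.79 ± 0.44 (SD, n = 4) in Eµ-Myc and 4.64 ± 0.27 in Wrn. The genotype difference was -0.14 ± 0.24 (SE, 95% interval -0.68 to 0.40, limma adjusted p = 0.986). That interval spans 0.63 to 1.32 times the Eµ-Myc signal with the offset in it, which is not a range of Il1b level. In the authors' lumi values, which carry no offset, Il1b ran from 1.8 to 22.5 in Eµ-Myc and from 2.2 to 14.1 in Wrn.

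Tumour necrosis factor (Tnf), a cytokine that activates NF-kappaB through its 2 receptors, had the widest spread in signal of the 10 probes. In Eµ-Myc tumours 1 to 4 it read 4.36, 6.11, 5.64 and 4.44, and in Wrn tumours 1 to 4 it read 4.58, 4.80, 4.59 and 5.42. Eµ-Myc 2, Eµ-Myc 3 and Wrn 4 were the 3 tumours in which it was detected, and Wrn 2 just missed, with a detection p of 0.01003. The highest and the lowest signal were both in Eµ-Myc tumours, the lowest in Eµ-Myc 1, where it was not detected. In the authors' lumi values Tnf ran from 2.5 to 52.9 in Eµ-Myc and from 7.5 to 26.7 in Wrn. The genotype difference in the fit with no filter was -0.29 ± 0.43 (95% interval -1.29 to 0.71; limma adjusted p = 0.989). That interval reaches from 0.41 to 1.64 times the Eµ-Myc signal with the offset in it, which is not a range of Tnf level.

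Interleukin 6 (Il6), a cytokine that signals through Jak and Stat3, was detected in 0 of 8 tumours. Its non-normalized signal was 46.8 to 52.1, beside array medians of 49.9 to 52.8, and its detection p was never below 0.0764. Any difference in Il6 between these tumours was therefore not detectable at this depth of signal.

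To set the cytokine genes beside their regulatory DNA, the windows from 250 bases before to 50 bases after the start of transcription are shown for Il1b and Tnf, whose signals went together, and for Il6, which was not detected. They are RefSeq sequences of build GRCm38.p6, at chr2:129371090-129371389 (minus strand), chr17:35201958-35202257 (minus strand) and chr5:30012864-30013163 (plus strand), written 5′ to 3′ on the gene's strand. Capitals mark matches on either strand to the NF-kappaB (kB) consensus, the E-box CACGTG or the AP-1 element TGANTCA.
Il1b: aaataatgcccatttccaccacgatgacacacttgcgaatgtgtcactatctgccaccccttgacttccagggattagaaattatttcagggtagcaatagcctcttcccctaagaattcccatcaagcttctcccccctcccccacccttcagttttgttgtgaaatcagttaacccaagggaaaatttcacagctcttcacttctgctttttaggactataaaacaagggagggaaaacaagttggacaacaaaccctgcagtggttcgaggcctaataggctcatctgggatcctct
Tnf: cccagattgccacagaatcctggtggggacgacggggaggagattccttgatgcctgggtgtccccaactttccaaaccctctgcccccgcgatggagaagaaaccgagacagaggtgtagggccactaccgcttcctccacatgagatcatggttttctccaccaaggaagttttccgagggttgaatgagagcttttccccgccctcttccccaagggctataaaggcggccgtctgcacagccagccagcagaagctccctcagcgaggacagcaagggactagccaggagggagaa
Il6: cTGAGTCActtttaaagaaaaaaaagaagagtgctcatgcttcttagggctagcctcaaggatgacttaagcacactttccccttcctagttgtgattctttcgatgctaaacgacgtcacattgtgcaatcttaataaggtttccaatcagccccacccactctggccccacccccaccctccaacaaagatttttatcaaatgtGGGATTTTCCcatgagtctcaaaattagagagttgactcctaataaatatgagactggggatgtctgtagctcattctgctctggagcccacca
The Il6 window held 1 kB match, at position -44 from the start, and 1 AP-1 match at -249, while the Il1b and Tnf windows held none of the 3 motifs. Promoter windows were found for 7 of the 9 genes, and Plau and Lmnb1 had none in the table. Of the others, Plaur held an AP-1 match at -69, and Glb1 held an E-box at -48 that overlaps an AP-1 match at -53. Igfbp3 and Icam1 held no match to the 3 motifs as searched. Among all 32851 mouse promoter windows of that length, 8.46% held a kB match, 7.15% the E-box and 7.81% the AP-1 element. A match is a run of letters and not evidence of binding, and the lack of one is not evidence that no site is there.

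The secreted growth factor binding protein Igfbp3, which carries insulin-like growth factors in blood and tissue, had the largest SD among the tested members on this offset scale. Its signal was 7.58, 6.22, 6.60 and 7.55 in Eµ-Myc tumours 1 to 4 and 6.61, 6.88, 6.41 and 7.28 in Wrn tumours 1 to 4. The highest pair and the lowest tumour were all Eµ-Myc, with all Wrn tumours between them, a 2.56-fold range. Over the 8 tumours 86.4% of tested probes had a smaller SD. In the authors' lumi values, which carry no offset, the ratio of highest to lowest tumour was 2.98 for Igfbp3. It was larger for the tested Il1b (12.5), Plaur (3.13) and Plau (3.10), so that order depends on the scale. The genotype means were 6.99 ± 0.68 and 6.79 ± 0.38 (SD, n = 4 each), and the difference was -0.20 ± 0.33 (95% interval -0.92 to 0.53; limma adjusted p = 0.986).

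Urokinase (Plau) is a secreted protease that turns plasminogen into plasmin, and Plaur is the receptor that holds it at the cell surface. Plau signal was 4.83, 5.72, 5.77 and 4.88 in Eµ-Myc tumours 1 to 4 and 5.28, 5.63, 5.04 and 5.77 in Wrn tumours 1 to 4. It was detected in every tumour but Eµ-Myc 1, where the detection p was 0.0138. Eµ-Myc 2 and 3 and Wrn 2 and 4 were again its 4 highest tumours. The difference between genotypes was 0.13 ± 0.27 (95% interval -0.47 to 0.73; limma adjusted p = 0.986). Plaur, detected in all 8 tumours, read 5.16, 4.77, 5.68 and 4.86 in Eµ-Myc tumours 1 to 4 and 5.13, 5.02, 5.20 and 5.51 in Wrn tumours 1 to 4. Its highest tumours were Eµ-Myc 3 and Wrn 4 and its lowest Eµ-Myc 2, so the ligand and its receptor did not rank the tumours alike. The Plaur difference was 0.097 ± 0.23 (95% interval -0.40 to 0.60; limma adjusted p = 0.987).

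Icam1, the adhesion molecule that binds integrin LFA-1 on leukocytes and is a target of NF-kappaB, was detected in all 8 tumours. Its signal was 8.48, 8.92, 8.44 and 8.06 in Eµ-Myc tumours 1 to 4 and 8.35, 8.14, 8.43 and 8.69 in Wrn tumours 1 to 4. Eµ-Myc tumours gave both the highest and the lowest value. The difference was -0.071 ± 0.21 (95% interval -0.54 to 0.40, limma adjusted p = 0.987). The interval spans 0.69 to 1.32 times the Eµ-Myc signal.

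Lamin B1 (Lmnb1), a filament protein of the nuclear lamina, was measured by 2 probes, both detected in all tumours. Probe 1 (ILMN_2916035) read 12.07, 11.74, 12.30 and 11.77 in Eµ-Myc tumours 1 to 4 and 12.01, 11.98, 12.06 and 12.15 in Wrn tumours 1 to 4, and 10.3% of tested probes had a smaller SD. Probe 2 (ILMN_2720229) read 6.47, 5.84, 6.80 and 6.46, then 6.05, 5.99, 6.42 and 6.23. Both probes put Eµ-Myc 3 highest and Eµ-Myc 2 lowest, and the Wrn tumours lay inside the Eµ-Myc range in each. The genotype difference was 0.081 ± 0.18 (95% interval -0.32 to 0.48; limma adjusted p = 0.987) for probe 1, and -0.033 under median scaling. For probe 2 it was -0.22 ± 0.22 (95% interval -0.71 to 0.27; limma adjusted p = 0.973). The probes thus gave fitted differences of opposite sign, each with an interval that includes 0.

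Glb1 encodes the lysosomal beta-galactosidase whose activity is stained to mark senescent cells. Its signal was 8.49, 8.40, 8.56 and 8.39 in Eµ-Myc tumours 1 to 4 and 8.06, 8.40, 8.32 and 8.70 in Wrn tumours 1 to 4. The 4 Eµ-Myc tumours lay close together, and the Wrn tumours held both the highest and the lowest value. Their means were 8.46 ± 0.08 and 8.37 ± 0.26 (SD, n = 4 each), with a difference of -0.094 ± 0.18 (95% interval -0.49 to 0.30; limma adjusted p = 0.986).

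**Figure D2:**
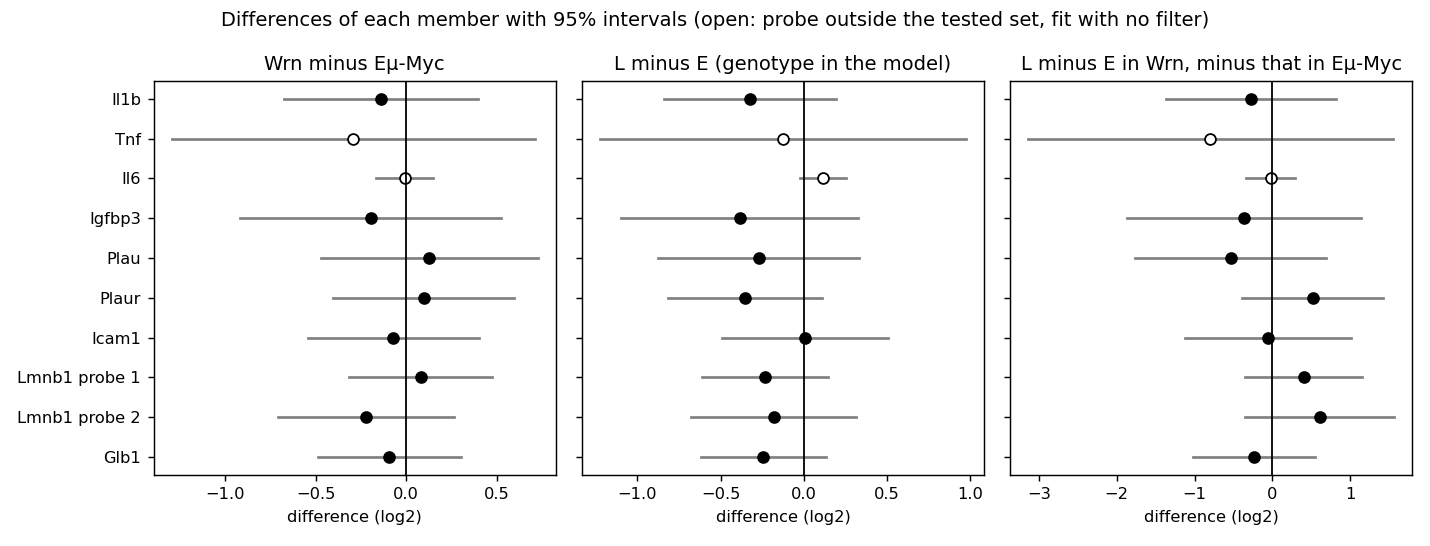
Fitted differences (log2) of each member probe with 95% intervals for genotype, letter and their interaction, from 8 tumours, with open circles for Tnf and Il6, which were fitted with no filter. Every interval includes 0, and those of Tnf are the widest.

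Over the 8 tested member probes, 5 genotype differences were below 0 and 3 above, with a median of -0.083 beside 0.0068 for all tested probes, and Lmnb1 probe 1 moved below 0 under median scaling. By letter, L minus E with genotype in the model, 7 were below 0 and 1, Icam1, was above at 0.0052. The median was -0.26, beside 0.011 for all tested probes. Plaur had the lowest adjusted p among them, with a difference of -0.35 ± 0.21 (95% interval -0.82 to 0.11; limma adjusted p = 0.763), and means of 5.34 ± 0.31 in E and 4.99 ± 0.21 in L (SD, n = 4 each). Igfbp3 differed by -0.39 ± 0.32 (limma adjusted p = 0.819) and Il1b by -0.33 ± 0.23 (limma adjusted p = 0.802), neither past the test. The size for Il1b depends on the scale of this dim probe: it was -1.498 in the deposited lumi values (limma adjusted p = 0.704) and -0.87 with the GUI values after a square root (limma adjusted p = 0.757). Icam1 alone turned sign with the scaling: with cyclic loess its value was -0.026, and with median scaling -0.028.

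The letters lay further apart in one genotype than in the other for several members, but no interaction passed the test. Within the Wrn tumours both E values stood above both L values for 5 members, the tested Il1b, Igfbp3, Plau and Glb1 and the untested Tnf. Letters were just as separate, in either direction, for 36.9% of all tested probes, since each letter has only 2 Wrn tumours. L minus E in the Wrn tumours was -0.57 for Igfbp3, -0.54 for Plau and -0.36 for Glb1, and Il1b was detected in both E and neither L tumour of that genotype. For Plaur, Lmnb1 probe 1 and Lmnb1 probe 2 the larger gap was in the Eµ-Myc tumours, at -0.61, -0.43 and -0.48, against -0.10, -0.03 and 0.12 in Wrn. Lmnb1 probe 2 had the largest fitted interaction of the tested member probes, 0.60 ± 0.42 (95% interval -0.35 to 1.56, limma adjusted p = 0.937). That of Plaur was 0.52 ± 0.40 (95% interval -0.39 to 1.42, limma adjusted p = 0.937), and the adjusted p-values of the other tested member probes ran up to 0.989.

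Some members ranked the 8 tumours alike. Of the 45 pairs of member probes, 4 had a Pearson r above 0.8 over the 8 tumours, and the median pair had 0.17. These values are descriptions from 8 tumours that share arrays and normalization, and the pairs were picked as the highest, so no p is given. Plaur and Lmnb1 probe 1 had r = 0.964 (Spearman rho 0.976), and 0.907 over 6 without the 2 tumours farthest from the median. Among 7664 other tested genes, each by its brightest probe, none correlated with Plaur more closely than Lmnb1. In the other direction Plaur had rank 4 for Lmnb1. With Lmnb1 probe 2 the r of Plaur was 0.628, and -0.086 without the 2 farthest tumours. Il1b and Plau had r = 0.904 (rho 0.833), Il1b and Tnf 0.874 (rho 0.810), and Tnf and Plau 0.843 (rho 0.905). With the 2 farthest tumours left out these were 0.908, 0.823 and 0.889. Among all tested genes Plau had rank 26 for Il1b and Il1b rank 19 for Plau. Il1b was detected in 4 and Tnf in 3 of the 8 tumours, so their other values in these pairs are background readings. The 2 Lmnb1 probes correlated with each other at 0.598, and at -0.187 without the 2 farthest tumours.

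**Figure D3:**
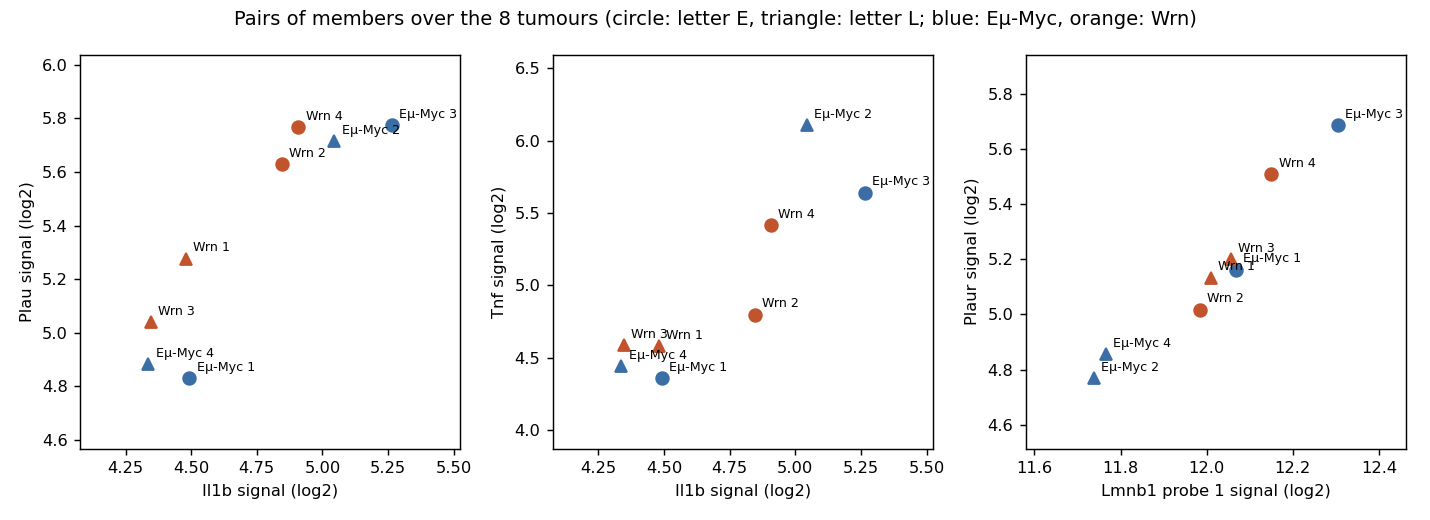
Signal (log2) of Il1b against Plau and Tnf, and of Lmnb1 probe 1 against Plaur, in each of the 8 tumours, by genotype (colour) and letter (symbol). Eµ-Myc 2, Eµ-Myc 3, Wrn 2 and Wrn 4 hold the highest values of Il1b, Plau and Tnf, though Tnf in Wrn 2 was only 4.80 and not detected. Plaur follows Lmnb1 probe 1 from Eµ-Myc 2 to Eµ-Myc 3.

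The genes most like each member over the tumours were named by Pearson r among 7664 genes, again as a description with n = 8. For Il1b they were Alox5ap (0.970), which activates leukotriene synthesis in myeloid cells, Gpc1 (0.960) and E2f1 (0.957). For Plau they were Serinc3 (0.974), Dok3 (0.950), an adaptor of B cells and macrophages, and Tmem176a (0.948). Icam1 went with Bcl3 (0.962), a nuclear partner of NF-kappaB, with Cyba (0.932), a subunit of the phagocyte oxidase, and with Rab22a (0.919). After Lmnb1, Plaur went with the kinase Mapk14 (0.961) and with Tmem229b (0.957), and Tmem229b also led the list of Lmnb1 (0.971), before Tmem81 (0.971) and Zbtb45 (0.965). Igfbp3 was followed by Ints1 (0.980), Dhx38 (0.976) and Szrd1 (0.960), and Glb1 by Patl1 (0.948), Ece1 (0.947) and Sema7a (0.938).

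Markers of other cells differed between the tumours too. Each sum below adds the unlogged signals of all markers of a type on the array, detected or not. The offset is in each marker, so low sums are largely offset and their ratios between tumours are too small. Of 14 macrophage and monocyte markers tested, 13 had a lower fitted mean in Wrn, and their summed signal was 8414 to 12686 in Eµ-Myc and 5900 to 10383 in Wrn. Of 6 neutrophil markers tested, 5 were lower in Wrn and all 6 lower in L, while Cxcr2 was detected in none. Their summed signal was 652, 446, 2833 and 270 in Eµ-Myc tumours 1 to 4 and 266 to 762 in the Wrn tumours, so Eµ-Myc 3 alone lay outside the Wrn range. T cell markers summed to 952 in Eµ-Myc 2 and to 179 to 300 in the other 7, with Cd4 and Cd8a not detected in any. Eµ-Myc 2 had the highest Tnf and Icam1, and the lowest Igfbp3, Plaur and Lmnb1 by both probes. NK cell markers were also highest there, at 908, against 304 to 469, with Ncr1, Klrb1c, Klrk1 and Gzma not detected. All 8 stromal and all 7 endothelial markers tested were lower in L, as were 7 of 8 B cell and 8 of 14 macrophage and monocyte markers. No tested T or NK cell marker was lower in L. By genotype all 3 T cell and all 2 NK cell markers tested were lower in Wrn, and 0 of 8 B cell markers were. Eµ-Myc 2, which carries L, had the highest signal of each of these T and NK cell markers. Its Cd3d was 7.80, against 4.77 to 5.84 in the other tumours, so these counts rest in part on 1 tumour. Among all 7665 tested genes 3886 were below 0 by letter and 3747 by genotype. Stroma summed to 1688 to 2431 in Eµ-Myc and 1380 to 4454 in Wrn, and endothelium to 1706 to 2563 and 1552 to 2850, both highest in Wrn 4, which also had the highest Glb1. The part of these cells in the members' values was not tested.

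**Figure D4:**
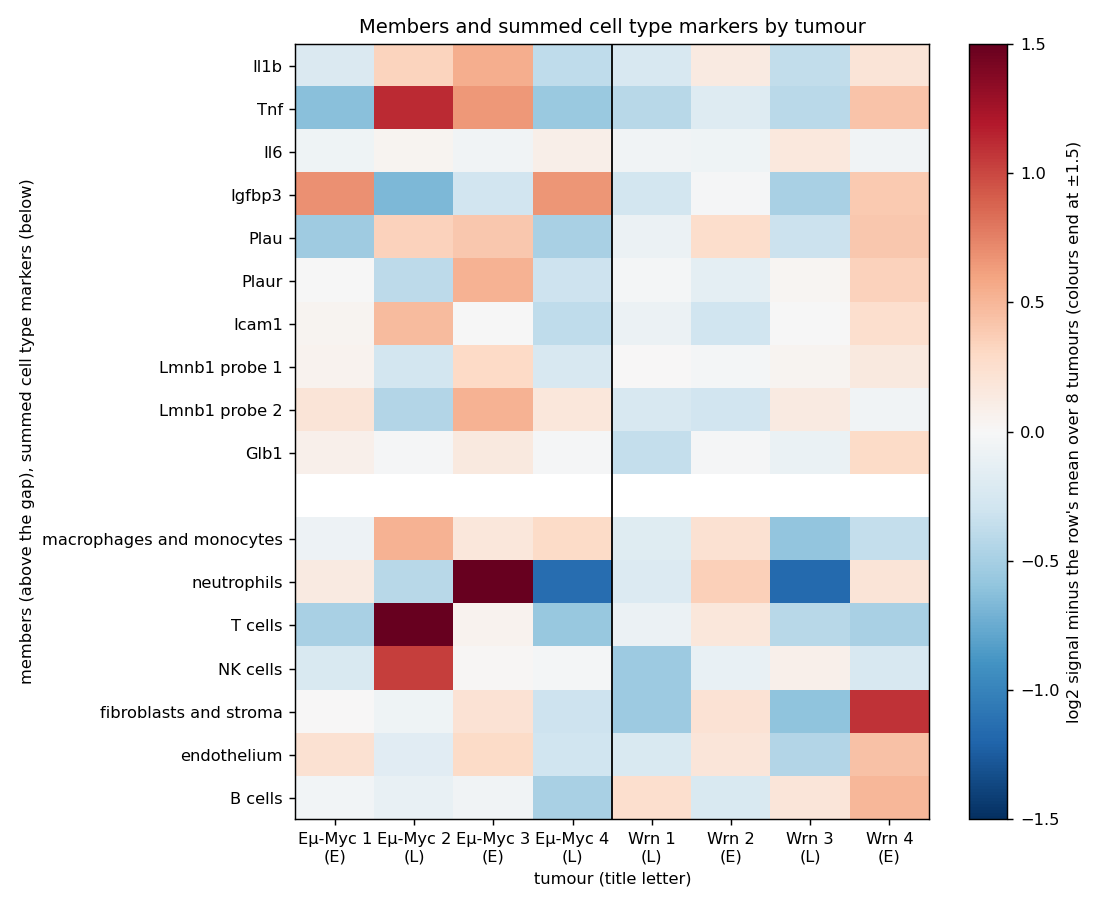
Log2 signal of each member probe, and of the summed markers of each cell type, in each tumour relative to the row's mean over the 8 tumours, with red above and blue below. Il1b, Tnf and Plau are red in Eµ-Myc 2, Eµ-Myc 3 and Wrn 4, neutrophil markers are reddest in Eµ-Myc 3, and T and NK cell markers in Eµ-Myc 2.

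None of the wider pathway genes was called either. Of 121 related genes listed by role, 108 were on the array and 73 were tested, and 0 were called by limma between genotypes or letters. At an unadjusted p under 0.05, 2 passed for genotype and 13 for letter, beside 295 and 584 of all 7665 tested genes. The median genotype difference was -0.014 (all tested genes 0.0069) and the median letter difference -0.158 (all tested genes -0.0042). Adjusted p-values for the related genes named here are from limma, were at least 0.973 for genotype and are given for letter where the value is discussed.

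In the interleukin 1 group 3 of 7 tested genes were above 0 in Wrn minus Eµ-Myc and 4 below. Il18, a relative of Il1b, differed by -0.45 ± 0.23 and Myd88, the adaptor of interleukin 1 and Toll-like receptors, by -0.32 ± 0.17. Casp1, the protease that cleaves the Il1b precursor, differed by 1.49 ± 0.42 between L and E (limma adjusted p = 0.489), with all 4 L tumours at 8.94 or more and all 4 E tumours at 8.82 or less. In the interleukin 6 group 6 of 7 letter differences were below 0. The shared receptor chain Il6st differed by -0.48 ± 0.18 (limma adjusted p = 0.611), and by genotype the related cytokine Osm differed by 0.56 ± 0.41 and the kinase Jak2 by -0.37 ± 0.27. Of 6 tumour necrosis factor genes, 4 were above 0 by genotype and 4 by letter. The receptor adaptor Traf2 differed by -0.53 ± 0.31 and the ubiquitin ligase Birc2 by 0.30 ± 0.21 between genotypes, and Birc2 by 0.38 ± 0.19 between letters (limma adjusted p = 0.700).

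Of 11 other secreted factors, 7 were below 0 by genotype and 8 by letter. The chemokine Ccl8 was 5.29, 10.19, 7.13 and 6.26 in Eµ-Myc tumours 1 to 4 and 5.35, 4.79, 5.74 and 5.55 in Wrn tumours 1 to 4. Eµ-Myc 2 was by far the highest, Eµ-Myc 1 lay within the Wrn range, and the genotype difference was -1.86 ± 0.82. The matrix protease Mmp14 differed by -0.56 ± 0.41. The chemokine Ccl7 was 7.25 and 6.91 in the Eµ-Myc tumours with E and 7.63 and 7.60 in the Wrn tumours with E. In the L tumours it was 6.29 and 5.72 in Eµ-Myc and 5.43 and 5.56 in Wrn. The letters did not overlap, and the difference of -1.60 ± 0.25 missed the threshold after adjustment (limma adjusted p = 0.170). All 8 tested insulin-like growth factor genes were below 0 by letter, with a median of -0.67. Igfbp4, which like Igfbp3 binds these growth factors, was 9.04 ± 0.19 in E and 7.67 ± 0.46 in L (SD, n = 4 each), again with no overlap, and its difference of -1.38 ± 0.20 had the lowest adjusted p of the related genes (limma adjusted p = 0.142). Between genotypes the growth factor Igf1 differed by -0.55 ± 0.24 and the receptor substrate Irs2 by 0.66 ± 0.35.

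No gene of the groups around Plau, Icam1, Lmnb1 and Glb1 passed the test. Of 11 plasminogen genes 3 were tested, with Vtn at -0.091 ± 0.18 and S100a10, a plasminogen-binding protein, at 0.17 ± 0.21 by genotype. Vtn also had the lowest unadjusted letter p there, at -0.23 ± 0.17 (limma adjusted p = 0.811). Of 6 adhesion genes 4 were above 0 by genotype, among them the adhesion molecule Icam2 at 0.50 ± 0.41 and the membrane linker Ezr at 0.26 ± 0.19, while its relative Msn differed by -0.47 ± 0.24 by letter (limma adjusted p = 0.727). Of 9 lamina genes 4 were above 0, including the lamin B receptor Lbr at 0.21 ± 0.17, and 5 below, including the chromatin-bridging protein Banf1 at -0.39 ± 0.24. The second B-type lamin, Lmnb2, was -0.69 ± 0.24 by letter (limma adjusted p = 0.604). Of 10 lysosomal genes 8 were below 0 by genotype and 8 by letter, with Lamp1 at -0.18 ± 0.16 and the protease Ctsb at -0.24 ± 0.21 by genotype, and Hexa at -0.25 ± 0.20 by letter (limma adjusted p = 0.818). Of 6 cell cycle arrest genes 3 lay on each side by genotype. Cdkn2a, which encodes p16 and p19Arf, differed by 0.90 ± 0.71, with an SD of 1.78 in Eµ-Myc, and the inhibitor Cdkn1b by 0.20 ± 0.21, while the chromatin protein Hmgb2 was 0.30 ± 0.18 by letter (limma adjusted p = 0.767).

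**Figure D5:**
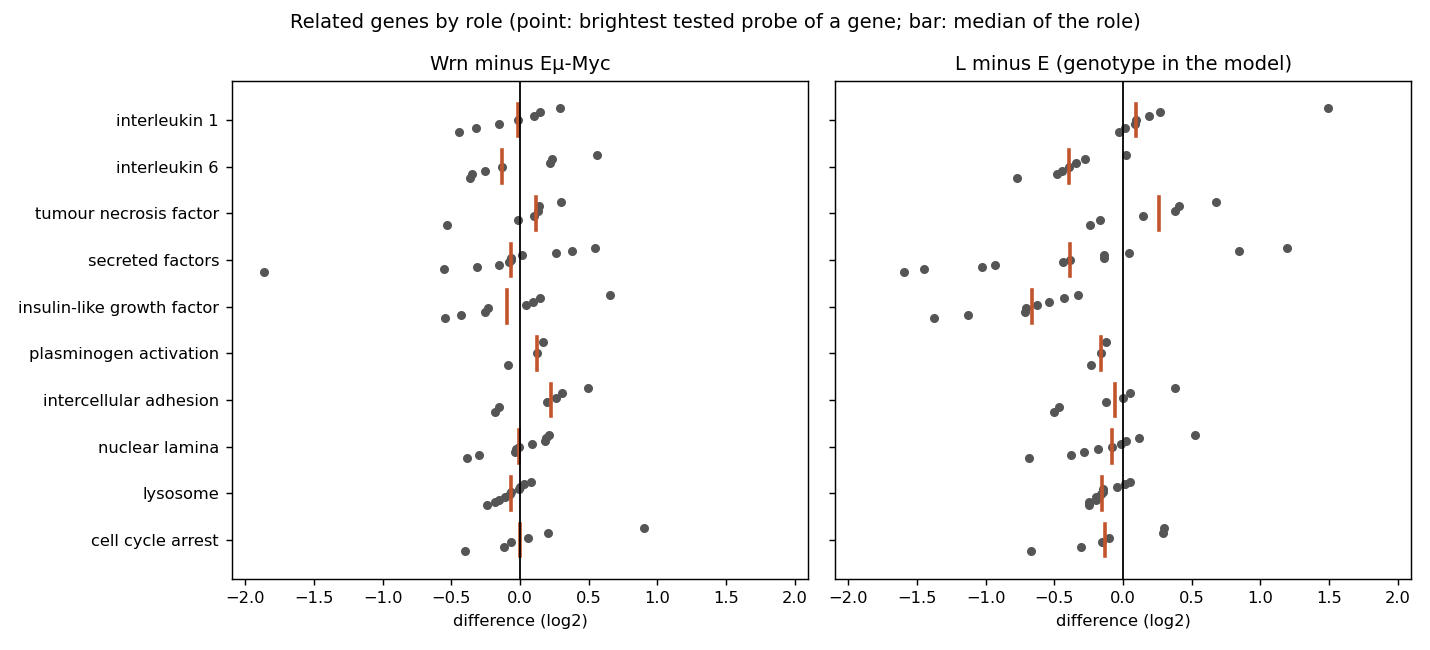
Differences (log2) of the 73 tested related genes by role, with 1 point for each gene's brightest tested probe and a bar at the median of the role, for genotype (left) and letter (right). All insulin-like growth factor genes lie below 0 by letter, and Ccl8 stands far left by genotype.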

How the data were processed

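Values came from 8 tumours, each deposited under 2 processings, named Illumina GUI and Bioconductor lumi, and each counted once. Trizol RNA was treated with DNase on RNeasy columns and made into biotin cRNA with an Ambion kit, per the labels' protocols. Per the file headers, the deposited non-normalized table gives, by probe and array, an average bead intensity with its detection p-value. The lumi table holds background-subtracted intensity as deposited, quantile normalized as found from its values, with 26.3% to 26.4% below 0. The values deposited under the GUI processing are a score, whose square root follows log2 of the lumi value within 0.0102 above a lumi value of 1000. The submitters' software versions are not given in the sources used.

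The tables name probes differently and were joined by the ranks of each of 25697 probes on the 8 arrays. Each probe had a single partner in the other table, and the best match was always closer than the second, with a highest ratio of distances of 0.143 (0.0384 among the members). Of the probes 23978 had 1 gene symbol in the platform annotation, 0 had several and 1719 had none listed. Symbols were updated by gene number for 23962 and by accession for 9, and 7 were kept.

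The neqc function of limma 3.58.1 (R 4.3.3) corrected the background, inferring the negative controls through the detection p-values, added an offset of 16 and quantile normalized the log2 signals. The 11024 probes (7665 genes) with a detection p below 0.01 in 4 or more of the 8 tumours were fitted with lmFit and eBayes, two-sided, with Benjamini-Hochberg adjustment over all of them, and the procedure was tested on simulated data. Genotype was Wrn minus Eµ-Myc, letter was L minus E with genotype in the model, and the interaction was the letter difference in Wrn minus that in Eµ-Myc. With 4 arrays per genotype, the number of arrays limits the precision. A gene with several probes is represented by its brightest tested probe.

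All members are named. Of the related genes, each role group gives the 2 with the lowest unadjusted genotype p and the 1 with the lowest unadjusted letter p, and each tested member gives the 3 genes with the highest Pearson r. The members, related lists and markers were chosen with earlier results of these data known. The replicate numbers follow the order in the series, and each joins an E tumour to an L tumour. The deviations of same-numbered tumours correlated at -0.214 to -0.0037. A letter difference would lower these values, so they cannot show whether the tumours were paired.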

Additional observations from a re-analysis of the deposited data

Results flagged for a closer look

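Il6 in Wrn tumour 3 stood apart from the other Wrn tumours, with a signal of 4.59 against 4.37 to 4.39, a gap of 0.914 of the group's range. Il6 was not detected in that tumour or in any other, and its detection p there was 0.0764. Chance sets about 1 in 20 groups apart by this measure, and the difference was not tested.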

How the results depend on the processing

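No member passed the test for genotype or letter under the deposited lumi values, the square root of the GUI values, an offset of 50, no background correction, cyclic loess, median scaling, other detection filters, trend and robust variance, array weights, the replicate block or with each tumour left out, nor for genotype with letter as a term, so the counts of members called stayed at 0. The members' interaction was taken only under the lumi, GUI, offset and detection filter settings, with 0 called. The lowest adjusted p among the members' values was 0.860 for genotype, 0.601 for letter and 0.907 for the interaction. No related gene was called by genotype under the lumi values, no filter, the replicate block or with each tumour left out, the alternatives run for them. Of 167 genotype values 9 changed sign, of 159 letter values 7 did, and of 47 interaction values 0 did. Under median scaling Lmnb1 probe 1 was -0.033 by genotype and Icam1 -0.028 by letter, and under cyclic loess Icam1 was -0.026 by letter. Median scaling also moved the median interaction of all tested probes from 0.028 to -0.17. The causes of these changes were not tested. With 1 tumour left out at a time, the genotype difference ran from -0.29 to 0.020 for Il1b, -0.019 to 0.29 for Plaur, -0.028 to 0.29 for Plau, -0.21 to 0.076 for Icam1, -0.20 to 0.0090 for Glb1, -0.45 to -3.6e-05 for Igfbp3, 0.0039 to 0.19 for Lmnb1 probe 1 and -0.40 to -0.086 for Lmnb1 probe 2. The letter difference ran from -0.17 to 0.17 for Icam1, -0.32 to 0.0011 for Lmnb1 probe 2, -0.69 to -0.16 for Igfbp3, -0.51 to -0.20 for Il1b, -0.51 to -0.14 for Plau, -0.50 to -0.20 for Plaur, -0.31 to -0.15 for Lmnb1 probe 1 and -0.28 to -0.16 for Glb1. The count of all probes called by genotype was 4, against 1 with no filter or with detection on all 8 arrays, 2 with array weights, 2 with the replicate block and 1 to 6 with a tumour left out. By letter it was 2, against 1 under median scaling or trend and robust variance, 0 under the lumi, GUI, offset 50, no background correction, no filter, all 8 arrays and replicate block settings, and 0 to 8 with a tumour left out. The replicate block, whose numbers follow the order in the series, called 0 members and is no test of pairing. Dim signal limits Il6, Tnf and Il1b most, detected in 0, 3 and 4 of 8 tumours.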

Other observations

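The spread between tumours was wider in Eµ-Myc than in Wrn for most member probes, as it was for most of all tested probes. The SD over 4 tumours was larger in Eµ-Myc for 8 of the 10 member probes (80.0%), with median SDs of 0.41 and 0.25. The 10 include the untested Il6 and Tnf, and several of them ranked the tumours alike, so they are not 10 separate cases. Among all 11024 tested probes it was larger in Eµ-Myc for 59.1%, with medians of 0.32 and 0.27. Lmnb1 probe 1 had an SD of 0.27 in Eµ-Myc and 0.07 in Wrn, and Glb1 went the other way, with 0.08 and 0.26. The difference in spread was not tested.

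Beside the related genes named by rule, the letter difference had an unadjusted p under 0.05 for several others, chosen here after their values were seen. Timp1, an inhibitor of matrix proteases, differed by -1.45 ± 0.34 (limma adjusted p = 0.375), the chemokine Cxcl1 by -0.93 ± 0.27 (limma adjusted p = 0.496) and the matrix protease Mmp2 by -1.03 ± 0.39 (limma adjusted p = 0.604). A further 4 insulin-like growth factor genes, Igf1r, Igf2r, Igfbp5 and Igfbp7, differed by -0.71, -0.63, -1.13 and -0.72, and Tmpo, a protein of the nuclear lamina, by 0.53. None passed the test after adjustment. Stromal markers were lower in L in all 8 tested cases, as were 7 of 7 endothelial, 6 of 6 neutrophil and 7 of 8 B cell markers. For macrophages and monocytes it was 8 of 14, and for T and NK cells none. Any link between these markers and the genes named here was not tested.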
